A study of Mus musculus with 6 samples.

Results

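Integrins and the proteins that tie them to actin were followed in wire-injured carotid arteries of mice with and without the transcription factor IRF4. The members were a fixed list of 38 gene symbols, 21 integrin chains and 17 proteins of the focal adhesion. Each gene was read on the brightest of the probe sets that the platform annotation assigns to that gene alone, by the mean over the 6 arrays. In this way 37 of the 38 members were measured, among 18194 genes in all, and only Ptk2, the focal adhesion kinase, had no such probe set. Total RNA came from wild-type mice (WT, 3 arrays) and from global IRF4 knockout mice (IRF4 KO, 3 arrays). In both groups a wire had been passed through the carotid artery, an injury that strips the endothelium, and the vessels were taken 14 days later. Every array held a pool of 3 to 5 vessels, called a biological replicate in the labels, so the spread between arrays is that between pools. Strain, age, sex and the deleted part of Irf4 are not given in the labels. Irf4 itself read 3.90, 3.64 and 3.38 in WT and 3.27, 3.75 and 3.70 in IRF4 KO, all below the median level of all genes (4.89), and so gives no check of the genotype labels.

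An integrin is a pair of an alpha and a beta chain that spans the cell membrane. Outside the cell the pair binds matrix proteins such as fibronectin, collagen and laminin, or counter-receptors on other cells. Inside, talin and kindlin bind the beta tail, and vinculin, the ILK complex, filamin and alpha-actinin pass the force on to actin, while FAK, Src, p130Cas and paxillin relay signals. In the artery wall smooth muscle cells hold the matrix mainly through chains that pair with beta1 or alpha v, and the beta2 chain is made by leukocytes. In the text below, values are log2 intensities and are listed in the order of replicates 1, 2 and 3. A difference is the IRF4 KO mean minus the WT mean on the log2 scale, and its 95% interval comes from the limma fit over all 18194 genes. Levels of different genes are not set against each other, since each probe set has its own brightness.

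Smooth muscle transcripts were present in every array, with the smooth muscle myosin gene Myh11 at 11.44 to 12.30. The arrays WT 3 and IRF4 KO 1 differed from the rest. Their poly-A spike-in controls, transcripts of bacterial genes that are mixed into the sample RNA, averaged 4.93 and 5.14, against 7.35 to 9.26 elsewhere. The mean level of 13 macrophage and monocyte markers, relative to the mean of all arrays, was 1.84 in WT 3 and 2.80 in IRF4 KO 1, against -1.58 to -0.53 in the other 4 arrays, and 12 of the 13 were higher in both of these arrays than in any other. The mean of 9 cartilage markers was 2.40 in WT 3 and 2.34 in IRF4 KO 1, against -1.38 to -0.95 in the other 4 arrays. The cartilage collagen gene Col2a1 read 4.31, 4.04 and 12.07 in WT and 12.16, 3.75 and 5.15 in IRF4 KO. In a bulk sample more cells of a type and more RNA per cell cannot be told apart. Since each of these sets of arrays holds both genotypes, genotype differences are also given within them.

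No integrin or focal adhesion gene differed between the genotypes at the threshold. With limma, 0 of 37 members had a Benjamini-Hochberg adjusted p under 0.05, as did 0 of all 18194 genes (0%), and the adjusted p was 0.999 for every member. At an unadjusted p under 0.05 the fit held 0 of 37 members, beside 1.49% of all genes (0.407% higher and 1.08% lower in IRF4 KO). The smallest p in the limma model belonged to Vasp (0.0589), Tln1 (0.0624), Itgb1 (0.0687) and Itgb5 (0.0891), all with the higher mean in IRF4 KO. In 2 members, Tln1 and Itgb6, the 3 IRF4 KO arrays lay above the 3 WT arrays, 5.41% of the members beside 2.37% of all genes. In 0 members did they lie below, beside 3.31% of all genes. Over the 37 members, 19 differences were positive and 18 negative, with a median of 0.026 (-0.0015 over all genes). The median size of the difference was 0.19 in members and 0.15 in all genes, and the median SD within a genotype 0.32 and 0.29. The 95% intervals of the difference were narrowest for Ilk (-0.39 to 0.39) and widest for Itgb2 (-2.70 to 2.29).

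**Figure D1:**
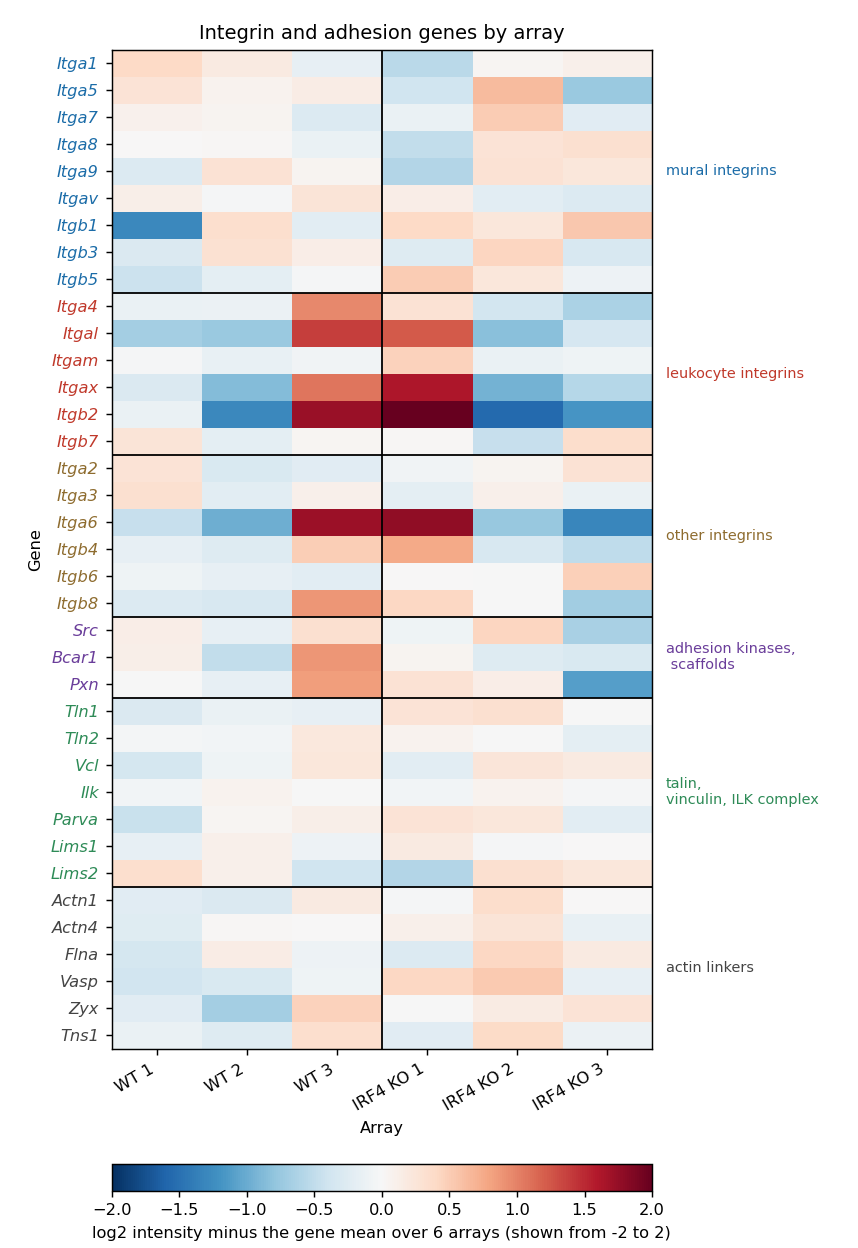
Log2 intensity of each of the 37 measured genes in each of the 6 arrays, relative to that gene's mean over the arrays, with genes in rows by class and arrays in columns. Itgb2, Itgal, Itgax and Itga6 are high in WT 3 and IRF4 KO 1, and no class separates the 3 WT from the 3 IRF4 KO arrays.

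**Figure D2:**
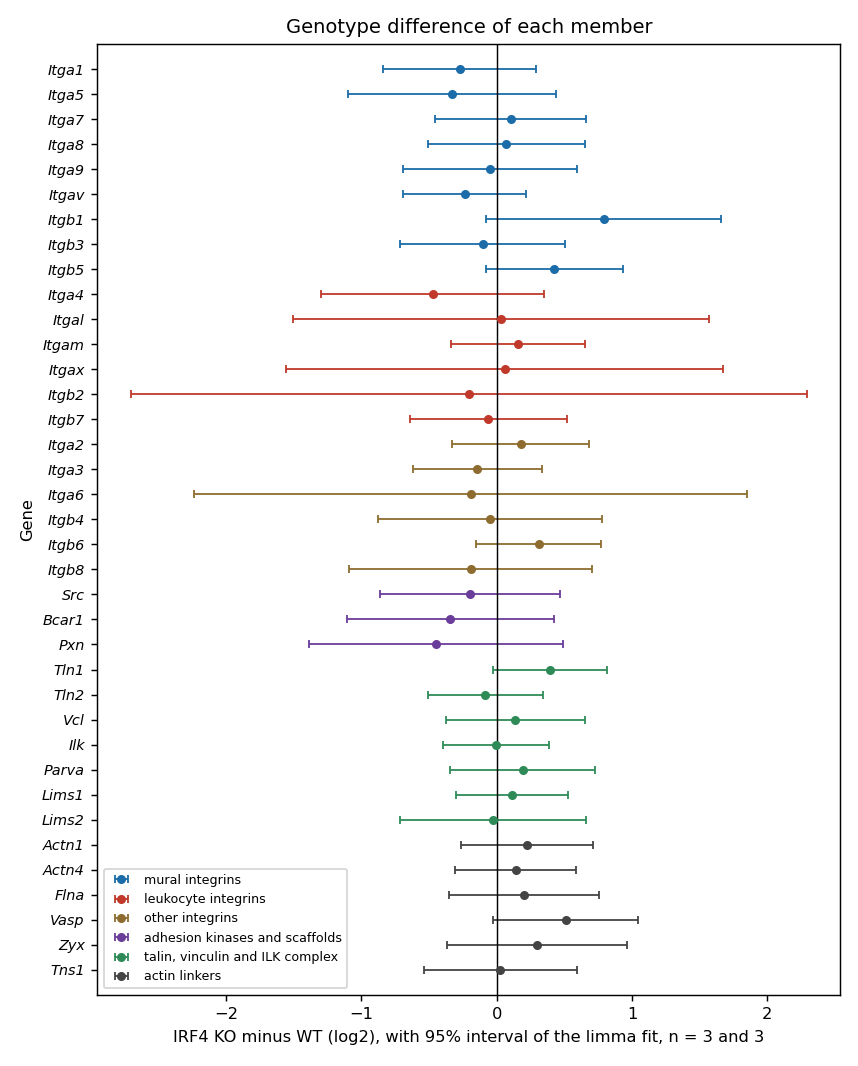
IRF4 KO minus WT difference of each measured gene on the log2 scale (points) with its 95% interval from limma (bars), 3 arrays per genotype. Every interval includes 0, and those of Itgb2, Itga6, Itgax and Itgal are the widest.

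Among the mural integrins, the 9 chains assigned here to the cells of the vessel wall, 4 had the higher mean in IRF4 KO and 5 the lower, with a median difference of -0.047. Itgb1, the beta chain shared by the collagen, laminin and most fibronectin receptors, showed the largest difference of any member. It read 8.11, 9.74 and 9.19 in WT and 9.82, 9.64 and 9.96 in IRF4 KO, a difference of 0.79 (95% interval -0.076 to 1.66). WT 1 was low and WT 2 lay within the range of the IRF4 KO arrays, so the genotypes overlapped. The next brightest probe sets gave the same picture, one reading 7.16, 9.26 and 8.62 in WT and 9.30, 9.05 and 9.27 in IRF4 KO and the other 3.72, 5.48 and 4.84 in WT and 5.34, 5.06 and 5.39 in IRF4 KO. The remaining 3 Itgb1 probe sets were dim, at most 3.13 in any array. Without WT 1 the difference of Itgb1 was 0.34. In WT 1 the 3' probe set of the actin control exceeded its 5' probe set by 3.12, against 1.43 to 2.12 in the other arrays. The same measure for the Gapdh control was 3.35 in WT 1 and as high in WT 3 (3.36), against 1.52 to 2.24 in the rest. These are signs of RNA quality, and their part in the low Itgb1 value was not tested.

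The alpha chains that pair with beta1 had differences in both directions, all smaller than that of Itgb1. Itga1, which makes the collagen receptor of smooth muscle, read 7.63, 7.40 and 7.06 in WT and 6.69, 7.26 and 7.32 in IRF4 KO, a difference of -0.27 (-0.84 to 0.29). Its lowest values were those of WT 3 and IRF4 KO 1, and its second probe set differed by -0.16. Itga7, the laminin receptor chain of muscle, read 7.73, 7.70 and 7.37 in WT and 7.52, 8.15 and 7.43 in IRF4 KO and differed by 0.10, less than the SD within IRF4 KO (0.39). Itga5, the fibronectin receptor chain that is characteristic of smooth muscle in its synthetic state, read 7.38, 7.19 and 7.26 in WT and 6.71, 7.75 and 6.38 in IRF4 KO, a difference of -0.33 (-1.10 to 0.43). Here the WT arrays lay close together, whereas the IRF4 KO arrays spread on both sides of them. Without IRF4 KO 2 the Itga5 difference was -0.74, and without IRF4 KO 3 -0.05. Its 3 other probe sets differed by -0.15, -0.42 and 0.21.

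Itga8, a chain strongly expressed by contractile smooth muscle that binds nephronectin and fibronectin, read 12.40, 12.42 and 12.27 in WT and 11.90, 12.68 and 12.73 in IRF4 KO. The WT values were close together, IRF4 KO 1 was below all of them and IRF4 KO 2 and 3 were above all of them, which gave a difference of 0.071 (-0.51 to 0.65). On its second probe set Itga8 read 7.71, 8.74 and 7.69 in WT and 8.55, 8.82 and 9.04 in IRF4 KO, a difference of 0.76, and the genotypes overlapped through WT 2 and IRF4 KO 1. Its ligand gene Npnt read 10.45, 11.34 and 11.25 in WT and 11.04, 11.80 and 11.21 in IRF4 KO, a difference of 0.34 (-0.36 to 1.03). Itga9, a receptor chain for tenascin-C and VCAM-1, read 7.57, 8.13 and 7.91 in WT and 7.26, 8.13 and 8.08 in IRF4 KO, with IRF4 KO 1 lowest and the other IRF4 KO arrays level with WT 2. That gene's difference was -0.047 on the brightest probe set and 0.27 and 0.20 on the others, so its direction depended on the probe set.

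The chains of the alpha v receptors for vitronectin and other RGD proteins had means in different directions. Itgav read 10.44, 10.29 and 10.58 in WT and 10.46, 10.11 and 10.04 in IRF4 KO, a difference of -0.24 (-0.69 to 0.22), with IRF4 KO 2 and 3 below all WT arrays and IRF4 KO 1 within their range. Itgb5, which pairs with it in the vitronectin receptor alpha v beta5, read 9.99, 10.22 and 10.39 in WT and 10.92, 10.64 and 10.32 in IRF4 KO, a difference of 0.43 (-0.081 to 0.93). IRF4 KO 1 and 2 exceeded every WT array and IRF4 KO 3 did not. Of the 4 Itgb5 probe sets, all of them bright, a second differed by 0.44, while the other two differed by 0.03 and -0.12. Itgb3, the other common partner of alpha v and, with alpha IIb, the fibrinogen receptor of platelets, read 7.56, 8.16 and 7.99 in WT and 7.59, 8.28 and 7.53 in IRF4 KO, and the genotypes overlapped fully (difference -0.10, -0.72 to 0.51). Itga2b, the platelet partner of Itgb3, stayed between 5.20 and 5.56.

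Most leukocyte integrins separated the arrays into WT 3 and IRF4 KO 1 on one side and the rest on the other, with both genotypes on each side. Of these 6 genes, 4 (Itga4, Itgal, Itgax and Itgb2) read higher in both WT 3 and IRF4 KO 1 than in any other array, a pattern found in 17.4% of all genes. Itgb2, the beta2 chain (CD18) that every leukocyte integrin of the LFA-1 and Mac-1 family needs, read 4.59, 3.45 and 6.46 in WT and 7.16, 3.18 and 3.54 in IRF4 KO. IRF4 KO 1 and WT 3 were the highest and IRF4 KO 2 the lowest, so that each genotype held both high and low arrays, and the difference of -0.21 had a 95% interval of -2.70 to 2.29. Itgax, the alpha chain CD11c of dendritic cells and tissue macrophages, read 5.20, 4.62 and 6.55 in WT and 7.10, 4.54 and 4.91 in IRF4 KO, and Itgal, the alpha chain of LFA-1 that binds ICAM-1, read 3.12, 3.05 and 5.18 in WT and 5.02, 2.96 and 3.47 in IRF4 KO. Their genotype differences were 0.058 (-1.56 to 1.67) and 0.032 (-1.51 to 1.57). The second Itgal probe set was not higher in these arrays and read 3.06, 2.80 and 2.89 in WT and 2.91, 2.95 and 3.34 in IRF4 KO.

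Itga4, the alpha chain of VLA-4, which binds VCAM-1 and fibronectin and is made by leukocytes and by some smooth muscle cells, read 5.81, 5.82 and 6.90 in WT and 6.23, 5.57 and 5.30 in IRF4 KO. WT 3 was highest and IRF4 KO 1 second, and within each set of arrays the IRF4 KO values lay below the WT values. The difference was -0.47 over all arrays (-1.30 to 0.35), -0.67 between IRF4 KO 1 and WT 3 and -0.38 between the means of the other 4 arrays. Without WT 3 the Itga4 difference was -0.11, and without IRF4 KO 1 it was -0.74. Its 4 other probe sets, all below the median gene level, differed by 0.004, 0.14, -0.41 and -0.14. Vcam1, the endothelial and smooth muscle ligand of VLA-4, had the higher values in IRF4 KO and read 8.43, 8.69 and 8.56 in WT and 9.66, 9.77 and 9.61 in IRF4 KO, with limma adjusted p = 0.252. Itgb7, a beta chain of gut-homing lymphocytes, read 5.84, 5.39 and 5.62 in WT and 5.60, 5.12 and 5.94 in IRF4 KO and showed neither pattern. Itgam, the alpha chain of Mac-1, read 2.60, 2.47 and 2.55 in WT and 3.08, 2.48 and 2.52 in IRF4 KO on its only probe set, well below the median gene level, and gave no measure of monocytes or neutrophils here. The pan-leukocyte gene Ptprc read 4.43, 3.65 and 7.70 in WT and 7.68, 2.90 and 2.40 in IRF4 KO, high in the same arrays as Itgb2. Of the 8 neutrophil markers 2, S100a8 and S100a9, were higher in both WT 3 and IRF4 KO 1 than elsewhere, and 1, Elane, was lower in both; the list averaged 0.78 in WT 3 and -0.012 in IRF4 KO 1, against -0.34 to -0.033 in the other 4 arrays. The T cell list did not set these arrays apart (-0.081 in WT 3 and 0.22 in IRF4 KO 1, against -0.23 to 0.17 in the other 4 arrays). The summed log2 level of the 13 macrophage markers ranged from 62.41 to 101.10 in WT and from 56.74 to 113.62 in IRF4 KO, and the part of these cells in the leukocyte integrin levels was not tested.

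**Figure D3:**
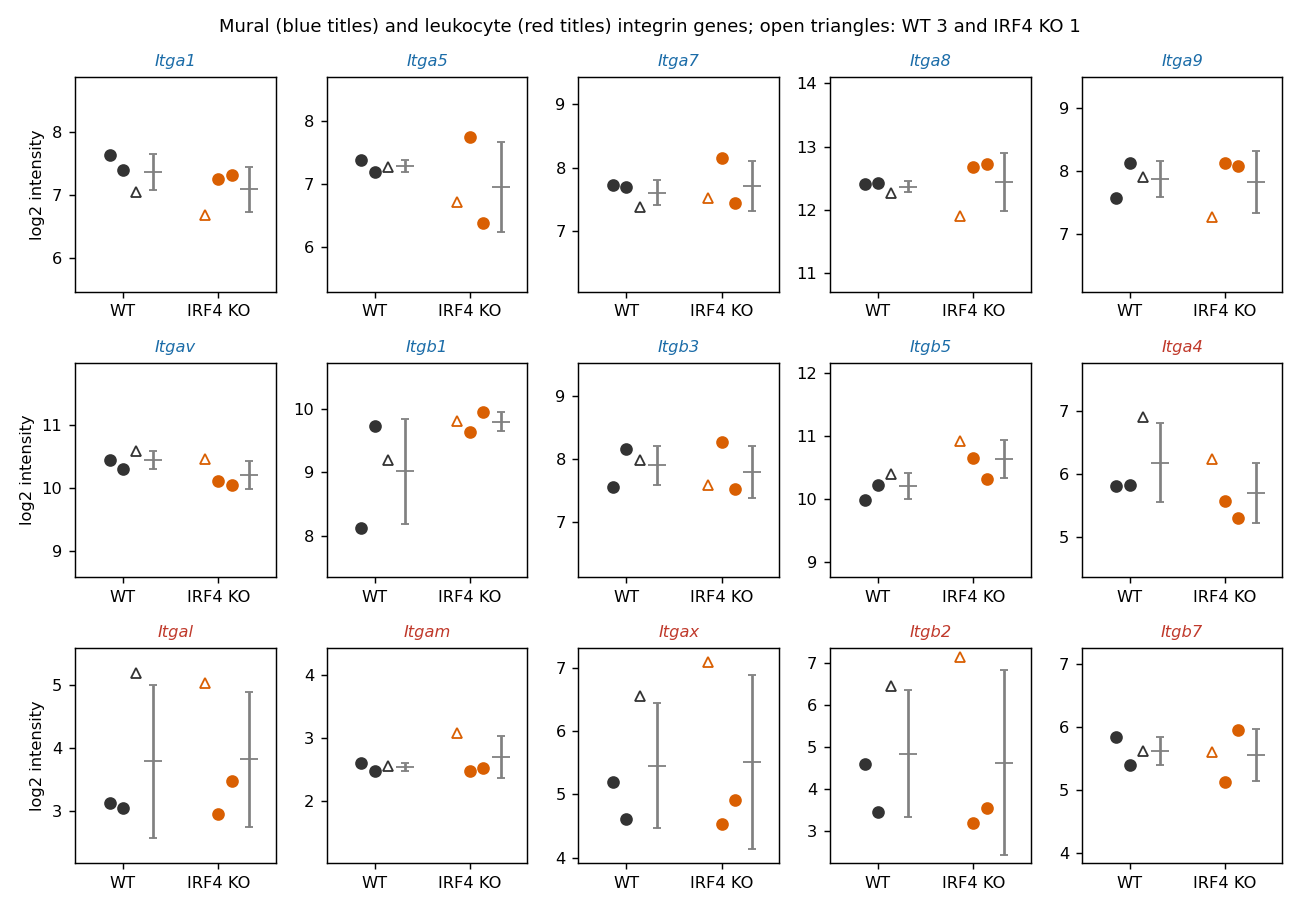
Log2 intensity of 9 mural and 6 leukocyte integrin genes by genotype, 1 point per array, with the mean and SD of 3 arrays beside the points. Open triangles mark WT 3 and IRF4 KO 1. They lie above the other arrays for Itgb2, Itgax, Itgal, Itga4 and, by a small margin, Itgav, and below them for Itga1 and Itga8. The axes span at least 3 log2 units and differ in position.

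Promoter windows of 4 members are given. The set of promoter windows used here has an entry for 27 of the 38 members. Each window holds the 250 bases before the gene start. Itgb1 has the largest genotype difference, Vcl is a focal adhesion gene, and Itgam and Itgax are leukocyte integrin genes that neighbour each other on the chromosome. Capitals mark the letters GAGGAA on either strand, a form of the site of the myeloid factor PU.1. In Vcl they mark the CArG box, the site of serum response factor. It was searched on both strands as CCWWWWWWGG, where W is A or T. In Itgam the downstream match lies on the other strand and reads TTCCTC.
Itgb1, GRCm38.p6 chr8:128685404-128685653, plus strand: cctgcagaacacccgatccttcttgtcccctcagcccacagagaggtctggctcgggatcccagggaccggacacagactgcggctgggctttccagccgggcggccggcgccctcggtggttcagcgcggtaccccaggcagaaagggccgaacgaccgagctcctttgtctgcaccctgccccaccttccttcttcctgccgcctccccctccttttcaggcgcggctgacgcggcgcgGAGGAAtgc
Vcl, GRCm38.p6 chr14:20929148-20929397, plus strand: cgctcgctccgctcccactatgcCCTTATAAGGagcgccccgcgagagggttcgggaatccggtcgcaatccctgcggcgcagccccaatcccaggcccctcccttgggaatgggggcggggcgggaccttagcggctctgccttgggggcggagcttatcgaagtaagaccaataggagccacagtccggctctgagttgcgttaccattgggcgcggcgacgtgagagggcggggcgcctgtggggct
Itgam, GRCm38.p6 chr7:128062390-128062639, plus strand: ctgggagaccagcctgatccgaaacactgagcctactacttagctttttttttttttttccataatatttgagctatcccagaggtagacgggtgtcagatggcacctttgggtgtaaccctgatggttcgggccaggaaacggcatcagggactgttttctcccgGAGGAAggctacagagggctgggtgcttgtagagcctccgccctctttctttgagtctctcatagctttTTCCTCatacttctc
Itgax, GRCm38.p6 chr7:128129300-128129549, plus strand: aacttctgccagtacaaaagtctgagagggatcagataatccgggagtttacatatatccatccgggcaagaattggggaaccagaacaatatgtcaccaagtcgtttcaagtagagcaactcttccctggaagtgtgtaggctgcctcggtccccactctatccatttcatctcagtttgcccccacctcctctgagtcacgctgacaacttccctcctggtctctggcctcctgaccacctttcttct
The CArG box was found in 2 of the 27 members (Vcl and Itgb6) and in 1.47% of all 32851 promoter windows of this length. In Vcl it starts 227 bases before the gene start. GAGGAA was found in 9 of the 27 members and in 23.3% of all windows, with 2 matches in Itgam and 0 in the Itgax window. A match describes the letters only.

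The other 6 integrin chains, which serve epithelia, nerve and endothelium more than muscle, had 2 higher and 4 lower means in IRF4 KO (median difference -0.097). Itga3, a laminin receptor chain, read 8.14, 7.61 and 7.92 in WT and 7.62, 7.92 and 7.69 in IRF4 KO, and its 3 probe sets differed by -0.14, -0.16 and -0.13. Itgb8, an alpha v partner that helps to activate latent TGF-beta, read 6.10, 6.06 and 7.26 in WT and 6.79, 6.36 and 5.68 in IRF4 KO, with WT 3 and IRF4 KO 1 highest and a genotype difference of -0.19 (-1.09 to 0.71). Itgb6, the epithelial alpha v partner, and Itga2, a collagen receptor chain of epithelia and platelets, were dim. Itgb6 read 2.60, 2.53 and 2.48 in WT and 2.70, 2.68 and 3.17 in IRF4 KO; the genotypes did not overlap, but the difference of 0.31 (-0.15 to 0.77) lies near the floor of the array. Itga2 read 4.54, 3.96 and 4.05 in WT and 4.20, 4.32 and 4.56 in IRF4 KO, a difference of 0.18. The laminin receptor chains Itga6 and Itgb4, named after their values were seen, followed the set of arrays. Itga6 read 5.29, 4.77 and 7.46 in WT and 7.52, 4.99 and 4.44 in IRF4 KO, and its second probe set 4.44, 4.16 and 6.48 in WT and 6.72, 3.93 and 3.78 in IRF4 KO. The genotype difference of Itga6 was -0.19 (-2.23 to 1.85), and 0.62 without WT 3. Itgb4, its partner in hemidesmosomes and in Schwann cells, read 6.15, 6.05 and 6.80 in WT and 7.06, 6.0 and 5.80 in IRF4 KO. Of the 4 measured nerve markers, 2 were higher in both WT 3 and IRF4 KO 1 than elsewhere, and 1, Sox10, was lower in both. The nerve list averaged 0.28 in WT 3 and 0.22 in IRF4 KO 1, against -0.22 to 0.0032 in the other 4 arrays. Of 7 endothelial markers, 3 were higher in both arrays than elsewhere and 0 lower. The endothelial list averaged 0.26 in WT 3 and 0.47 in IRF4 KO 1, against -0.51 to 0.0074 in the other 4 arrays. Of all genes, 17.4% were higher and 19.8% lower in both. Other lists rose more in these 2 arrays, among them the macrophage and cartilage lists given above. The 7 adventitial fibroblast markers averaged 0.76 in WT 3 and 1.29 in IRF4 KO 1, against -0.64 to -0.42 in the other 4 arrays. Of these 7 markers, 5 were higher in both arrays than elsewhere and 0 lower. The part of any of these cell types in the Itga6 and Itgb4 values was not tested.

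On their brightest probe sets all 3 measured adhesion kinases and scaffolds had the lower mean in IRF4 KO. Of all genes, 49.7% had the higher mean. The second probe set of Bcar1 differed by -0.057, and that of Src, below the median gene level, by 0.041. Paxillin (Pxn), the scaffold that docks FAK and vinculin, read 7.83, 7.67 and 8.67 in WT and 8.11, 7.97 and 6.73 in IRF4 KO. WT 3 was the highest array and IRF4 KO 3 the lowest, and the difference was -0.45 (-1.39 to 0.49). Without IRF4 KO 3 it was -0.016, and on the second probe set it was 0.26, in the opposite direction. p130Cas (Bcar1), a stretch-sensitive substrate of Src, read 7.46, 6.85 and 8.23 in WT and 7.39, 7.08 and 7.03 in IRF4 KO, a difference of -0.34 (-1.11 to 0.42) that WT 3 carried, since without it the value was 0.015. Src, the tyrosine kinase that acts with FAK, is named after its values were seen and read 5.91, 5.62 and 6.09 in WT and 5.69, 6.20 and 5.13 in IRF4 KO, a difference of -0.20 (-0.86 to 0.47) with IRF4 KO 3 the lowest array and IRF4 KO 2 the highest; without IRF4 KO 3 it was 0.074.

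Of the 7 genes of the talin, vinculin and ILK group, 4 had the higher mean in IRF4 KO and the median difference was 0.11. Tln1, the talin that binds the beta tail and switches integrins to their active state, read 8.59, 8.74 and 8.71 in WT and 9.15, 9.20 and 8.88 in IRF4 KO. Every IRF4 KO array was above every WT array, and the difference of 0.40 had a 95% interval of -0.026 to 0.82. It was of like size within both sets of arrays (0.43 between IRF4 KO 1 and WT 3, 0.38 in the others). The 2 dimmer Tln1 probe sets, both above the median gene level, had the lower mean in IRF4 KO, reading 6.18, 6.10 and 6.35 in WT and 6.24, 6.27 and 5.58 in IRF4 KO (difference -0.18) and 6.48, 6.39 and 5.56 in WT and 5.30, 5.99 and 5.60 in IRF4 KO (-0.51). With the mean of all 3 the gene's difference was -0.098, so its direction depended on the probe set.

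Vinculin (Vcl), which strengthens the link of talin to actin under load, read 10.90, 11.16 and 11.47 in WT and 11.04, 11.48 and 11.42 in IRF4 KO, a difference of 0.14 (-0.38 to 0.65) with WT 1 lowest and the genotypes overlapping. Lims2 (PINCH-2) read 10.47, 10.23 and 9.74 in WT and 9.55, 10.45 and 10.35 in IRF4 KO and had its lowest values in WT 3 and IRF4 KO 1, as did Itga1 and Itga8; its difference was -0.029. Parva (alpha-parvin), which joins ILK to actin, read 7.94, 8.43 and 8.51 in WT and 8.66, 8.61 and 8.18 in IRF4 KO, a difference of 0.19 (-0.34 to 0.73). ILK itself was the steadiest member, at 9.25, 9.37 and 9.29 in WT and 9.25, 9.37 and 9.28 in IRF4 KO, and its difference of -0.0028 had the interval -0.39 to 0.39; it is named after its values were seen. Lims1 (PINCH-1) and the second talin Tln2 differed by 0.11 and -0.084, and Tln2 stayed below the median gene level at 4.41 to 4.81.

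The 6 actin linkers all had the higher mean in IRF4 KO, by 0.026 to 0.51 (median 0.21), and none passed. Within the sets of arrays the counts differed: between IRF4 KO 1 and WT 3 only 2 of the 6, Vasp and Actn4, were higher in IRF4 KO (median -0.19), against 6 of 6 in the other arrays (median 0.41). The mean was higher in IRF4 KO in 49.7% of all genes. Vasp, an actin polymerase of adhesion sites, had the smallest p of the members. It read 7.91, 8.0 and 8.22 in WT and 8.71, 8.81 and 8.13 in IRF4 KO, with IRF4 KO 1 and 2 above all WT arrays and IRF4 KO 3 within their range. The difference of 0.51 (-0.024 to 1.04), or 1.42-fold, was 0.50 and 0.52 within the sets of arrays. Flna (filamin A), which crosslinks actin and binds beta tails, read 11.44, 11.94 and 11.69 in WT and 11.51, 12.20 and 11.97 in IRF4 KO, a difference of 0.20 (-0.35 to 0.75). Actn1 (alpha-actinin 1), which bundles actin at adhesions, read 10.89, 10.83 and 11.29 in WT and 11.09, 11.47 and 11.12 in IRF4 KO, and its 3 probe sets differed by 0.22, 0.19 and 0.14. Actn4 and the tensin Tns1 differed by 0.14 and 0.026. The other Tns1 probe sets, both above the median gene level, differed by 0.28 and 0.41. Zyx (zyxin), a sensor of tension on actin fibres, is named after its values were seen and read 8.71, 8.25 and 9.39 in WT and 8.93, 9.10 and 9.20 in IRF4 KO. Its difference was 0.29 over all arrays, 0.67 in the 4 arrays with high spike-in controls and -0.46 between IRF4 KO 1 and WT 3. The smooth muscle markers Acta2, Tagln and Smtn, which encode actin and actin-binding proteins, differed by 1.14, 1.08 and 1.09 (limma adjusted p = 0.252 for each), while Myh11 differed by 0.19 and Cnn1 by -0.042. These genes are from a list of 9 smooth muscle markers, of which 4 had the higher and 5 the lower mean in IRF4 KO (median difference -0.037).

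Levels by class set the mural and leukocyte integrins apart across arrays. The mean relative level of the 6 leukocyte integrins was 0.85 in WT 3 and 1.01 in IRF4 KO 1, against -0.72 to -0.17 in the other 4 arrays. For the 9 mural integrins it was -0.023 in WT 3 and -0.15 in IRF4 KO 1, against -0.16 to 0.27 in the other 4 arrays, and for the 16 adhesion proteins 0.17 in WT 3 and 0.01 in IRF4 KO 1, against -0.14 to 0.22 in the other 4 arrays. The SD within a genotype had a median of 0.85 in the leukocyte and 0.33 in the mural class. Over all 37 members, 10 were higher in both WT 3 and IRF4 KO 1 than in the rest (27.0%, beside 17.4% of all genes) and 3, Itga1, Itga8 and Lims2, were lower in both (8.11%, beside 19.8%). Besides the 4 leukocyte chains, the 10 were Itgav, Itga6, Itgb4, Itgb8, Pxn and Tln2. The 9 smooth muscle markers averaged -0.28 in WT 3 and -0.18 in IRF4 KO 1, against -0.26 to 0.39 in the other 4 arrays.

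**Figure D4:**
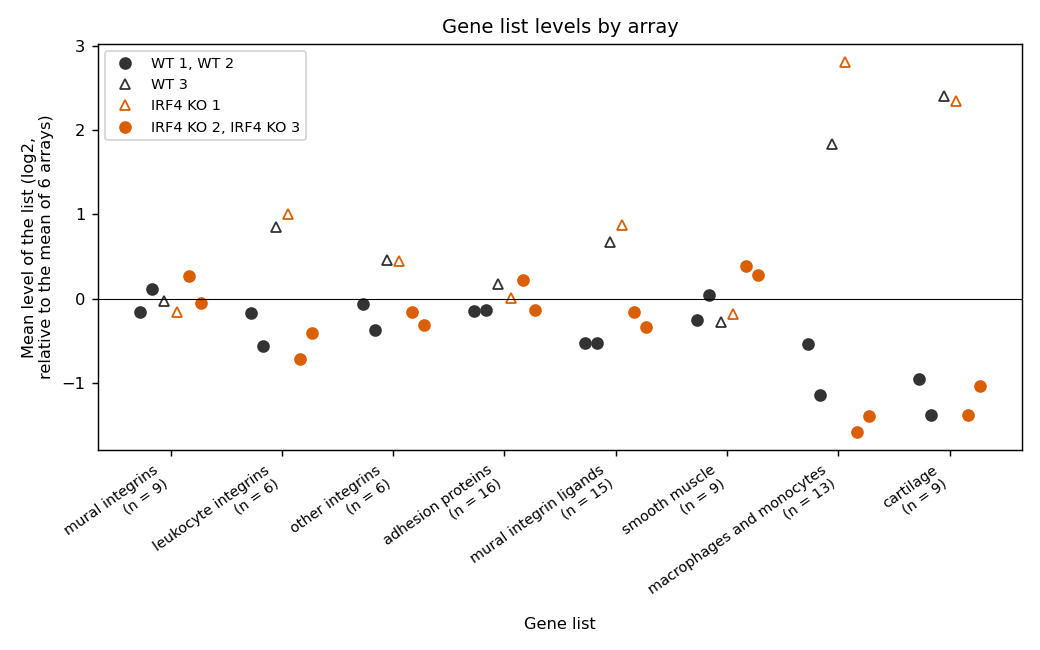
Mean level of 8 gene lists in each array, in log2 units relative to the mean of the 6 arrays, 1 point per array, with n the genes per list. Leukocyte and other integrins, matrix ligands, macrophage and cartilage markers lie higher in WT 3 and IRF4 KO 1 (open triangles) than in the other 4 arrays, and mural integrins and adhesion proteins show no such step.

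Within these sets of arrays the genotype differences of 4 of the 6 leukocyte chains had opposite signs. Between IRF4 KO 1 and WT 3, Itgb2 differed by 0.70, Itgax by 0.54 and Itgam by 0.53. Between the means of the other arrays the same genes differed by -0.66, -0.18 and -0.031. The fourth, Itgal, turned the other way (-0.16 and 0.13). Itgam read at most 3.08 in any array, so its signs rest on dim values. The means of Itgal and Itgb2 were also below the median gene level. Among mural integrins Itgb1 (0.62 and 0.87) and Itgb5 (0.52 and 0.38) kept their direction, and 3 of the 9 did not, Itga8 (-0.37 and 0.29), Itga9 (-0.64 and 0.25) and Itgb3 (-0.40 and 0.042). The 0.87 of Itgb1 rests on WT 1 (8.11), since WT 2 (9.74) lay between IRF4 KO 2 (9.64) and IRF4 KO 3 (9.96). For Itgb5, 2 other bright probe sets differed by only 0.03 and -0.12 over all arrays. The signs were opposite in 16 of 37 members (43.2%), beside 47.9% of all genes. A limma model with the product of genotype and spike-in set called 0 of 37 members, beside 0.0824% of all genes. Under an unadjusted 0.05 that limma model held Itgb2 (0.0395) and Zyx (0.0308), both with an adjusted p of 1.0, beside 3.33% of all genes. It rests on 2 residual degrees of freedom per gene. With the spike-in set as a block, limma again called 0 members and 0 of all genes, and 4 members (Itga4, Vasp, Itgb1 and Itgb5) had an unadjusted p under 0.05 (0.0286, 0.0371, 0.041 and 0.0483; adjusted p = 0.995), beside 3.68% of all genes.

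**Figure D5:**
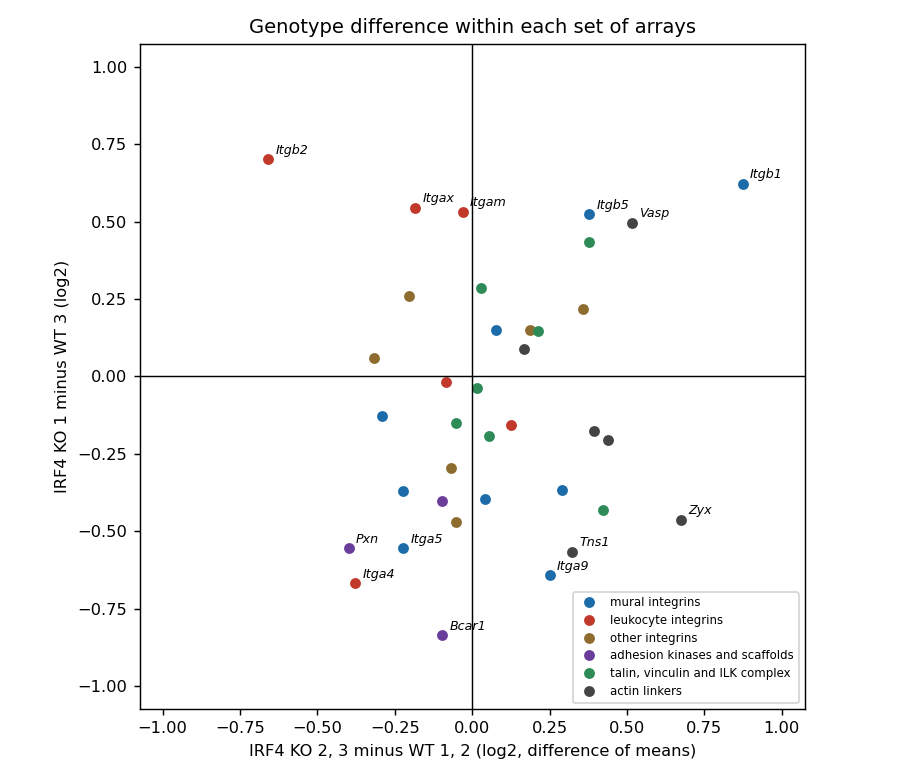
Genotype difference of each measured gene between IRF4 KO 1 and WT 3 (vertical axis, log2) against that between the means of IRF4 KO 2 and 3 and WT 1 and 2 (horizontal axis, log2), 1 point per gene. Itgb1, Itgb5 and Vasp lie in the upper right, Itgb2 in the upper left, and 16 of the 37 genes have opposite signs; genes beyond 0.5 on either axis are named.

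Other genes of the pathway were read from lists chosen as the members were. Of 62 measured genes limma called 0 in either direction, beside 0% of all genes. In the same limma fit 1 of the 62, Vcam1, had an unadjusted p under 0.05, beside 1.49% of all genes. For the counts of higher means below, the share of all genes is 49.7%. Among 9 kindlins and activators 6 had the higher mean (median difference 0.069); the brightest, Fermt2, the kindlin of smooth muscle, read 10.21, 10.56 and 10.63 in WT and 10.09, 10.85 and 10.85 in IRF4 KO. Among 24 further adaptors 11 were higher (median -0.023); the brightest, Lpp, a zyxin relative of smooth muscle, read 11.65, 11.50 and 11.27 in WT and 10.77, 11.51 and 11.52 in IRF4 KO, lowest in WT 3 and IRF4 KO 1. Of 15 matrix ligands of mural integrins 14 had the higher mean in IRF4 KO (median 0.31). Of these 15, 10 were also higher in both WT 3 and IRF4 KO 1 than elsewhere, beside 17.4% of all genes. The brightest of them, Col3a1, read 12.07, 12.19 and 13.21 in WT and 13.29, 12.62 and 12.55 in IRF4 KO, and fibronectin (Fn1) 11.07, 11.09 and 12.62 in WT and 12.77, 11.57 and 11.53 in IRF4 KO. Fn1 differed by 0.36 (-0.75 to 1.47), 0.15 between IRF4 KO 1 and WT 3 and 0.47 in the other arrays. Of 11 ligands of leukocyte integrins 6 were higher (median 0.0044). Icam1, the ligand of LFA-1 and Mac-1, read 6.77, 6.94 and 6.98 in WT and 7.36, 6.85 and 5.91 in IRF4 KO, a difference of -0.19 (-0.98 to 0.59).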

How the data were processed

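Gene expression was measured on 6 Affymetrix arrays of pooled carotid arteries, from 400 ng of total RNA each. The authors deposited log2 intensities per probe set, made with Affymetrix Expression Console and RMA, per the submitters' processing notes; their versions are not given in the sources used. RMA pulls dim probe sets together, so changes of dim genes are understated. Of 45101 probe sets, 34958 had 1 gene symbol in the platform annotation; 34754 of these were found by Entrez number in a RefSeq table (GRCm38.p6), which changed 0 symbols. Each of 18194 genes took its brightest probe set.

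IRF4 KO was compared with WT by limma 3.58.1 in R 4.3.3 (lmFit, eBayes, two-sided), adjusted by Benjamini-Hochberg over all genes and called under 0.05; the code was tested on simulated data. The number of arrays limits precision. The members, classes and lists were chosen with earlier results of these data known. The split of arrays uses 24 poly-A probe sets. Values by array are given for mural and leukocyte integrins and, in the other classes, for the 2 brightest genes and the 2 of smallest p; other genes given by array (Itga6, Itgb4, Src, Ilk, Zyx, Npnt, Fn1, Icam1) and single markers beyond Myh11, Ptprc and Col2a1 were chosen after their values were seen. Alternatives tried: the replicate number or the spike-in set as a block, averaging a gene's probe sets, dropping dim genes, subtracting array medians, quantile normalization, limma's robust trend, and leaving out each array or WT 3 with IRF4 KO 1.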

Additional observations from a re-analysis of the deposited data

How the results depend on the processing

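No member was called under any of the 14 alternatives, and the lowest adjusted p among the 33 members whose values are given by array was 0.868. The replicate block changed no call (unadjusted p under 0.05 in 0 members). Each replicate number holds 1 array of each genotype, so this block could not change a difference or its direction. The labels do not say that numbers pair samples, and deviations of same-numbered arrays correlated at -0.52, 0.37, -0.62 across genes. The count of members at an unadjusted p under 0.05, 0 in the reported fit, was 2 with the mean of all probe sets, 2 with quantile normalization, 4 with the spike-in block, 1 without WT 3 and IRF4 KO 1, and 0 to 3 with 1 array left out (3 without IRF4 KO 3). In 14 of the 33 members the direction held under every alternative. The replicate block, the spike-in block, the robust trend and dropping dim genes leave each difference as it is and could not turn a direction. With the mean of all probe sets Itga9 (0.14), Itgav (0.025) and Tln1 (-0.098) turned, as did Itgal with array medians subtracted (-0.0026) and Itga9 (0.014), Itgb4 (0.0075) and Ilk (0.026) with quantile normalization. Without WT 3 and IRF4 KO 1 together, Itga9 (0.25), Itgb3 (0.042), Itgam (-0.031), Itgax (-0.18), Lims2 (0.053) and Ilk (0.015) turned. Leaving out 1 array in turn moved the median difference of mural integrins from -0.19 to 0.19 (highest without IRF4 KO 1), of leukocyte integrins from -0.65 to 0.38 (lowest without IRF4 KO 1, highest without WT 3), of other integrins from -0.26 to 0.19 (highest without WT 3) and of adhesion proteins from 0.035 to 0.19. Leave-one-out ranges of the members that turned in them were, in log2 differences, Itga7 -0.12 to 0.24, Itga8 -0.075 to 0.34, Itga9 -0.20 to 0.23, Itgb3 -0.34 to 0.032, Itgal -0.57 to 0.73. They were also Itgam -0.036 to 0.26, Itgax -0.73 to 0.61, Itgb2 -1.47 to 0.61, Itgb7 -0.26 to 0.16, Itgb8 -0.45 to 0.20. The rest were Bcar1 -0.67 to 0.015, Vcl -6.00e-04 to 0.29, Lims2 -0.23 to 0.26, Itga6 -1.13 to 0.62, Itgb4 -0.44 to 0.19, Src -0.46 to 0.074, Ilk -0.038 to 0.031. The cause was not tested. Signal over background was not analysed here, so dim members such as Itgam, Itgal, Itga2, Itgb6 and Tln2 have only an uncertain level. The same holds for Itgb2 in its low arrays, and its mean over the 6 arrays (4.73) was below the median gene level (4.89).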

Other observations

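Beyond the members, several integrin partners named here after their values were seen read high in WT 3 and IRF4 KO 1. Fermt3, the kindlin of blood cells, read 5.30, 4.55 and 7.30 in WT and 7.54, 4.68 and 3.75 in IRF4 KO, and Ptk2b, the FAK relative of leukocytes, read 4.26, 4.35 and 5.78 in WT and 6.20, 4.27 and 3.88 in IRF4 KO. In both genes, as in Itgb2, IRF4 KO 1 was highest and WT 3 second. Itga10, the collagen receptor chain of chondrocytes, read 6.13, 6.07 and 7.60 in WT and 6.90, 6.47 and 5.71 in IRF4 KO, highest in the arrays with high cartilage markers. Tnc (tenascin-C), a ligand of Itga9, read 4.83, 4.69 and 8.86 in WT and 9.36, 5.22 and 4.73 in IRF4 KO, while Itga9 itself was not raised in them. Lamb1, a laminin chain with a mean below the median gene level, read 2.96, 2.49 and 5.73 in WT and 5.96, 2.56 and 2.91 in IRF4 KO. The laminin receptor chain Itga6 was high in the same arrays. Of the other laminin chains measured, Lama2 and Lamc1 were also higher in both arrays than elsewhere, and Lama4, Lama5 and Lamb2 were not. Lama4 of the smooth muscle basement membrane read 8.02, 8.21 and 7.66 in WT and 8.01, 7.97 and 8.04 in IRF4 KO. No genotype comparison of these genes passed limma's threshold, and what sets the pair of arrays apart was not tested.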
